A study of Mus musculus with 4 samples.

Results

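The genes described here are 7 that make and desaturate fatty acids, Acly, Acaca, Fasn, Elovl6, Scd1, Scd2 and Srebf1, in RNA of group 2 innate lymphoid cells (ILC2). They were taken by name, and all 7 are among the 15835 genes of the deposited count table. ILC2 are tissue-resident lymphocytes of type 2 immunity. The cells came from the islets of Langerhans in the pancreas of C57BL/6j mice that were either fed or fasted, and no other allele or agent is named for either group. Age, sex and the length of the fast are not given in the sources used here. Each group held 4 libraries, made from polyA RNA by CEL-seq2, a 3′ end method that barcodes samples and sequences several together. Libraries are named by the number in their column, 1, 3, 4 or 5, and columns named control were taken as fed. The labels do not tie libraries to single mice, so the tests measure only the spread between libraries, which may be technical.

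Cells make fatty acids from citrate that leaves the mitochondrion. ATP citrate lyase (Acly) cleaves it to acetyl-CoA, acetyl-CoA carboxylase 1 (Acaca) turns that into malonyl-CoA, and fatty acid synthase (Fasn) builds palmitate from both. Elovl6 lengthens palmitate to stearate, and the stearoyl-CoA desaturases Scd1 and Scd2 place a double bond in these chains to give the monounsaturated fatty acids of membranes and stored fat. Srebf1 encodes SREBP-1, the transcription factor that drives these enzymes. In liver the pathway rises with feeding and insulin and falls with fasting. Lymphocytes use it for membrane growth and can take up fatty acids instead.

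Library totals ran from 1797504 to 25252366 counts. Of 12 ILC2 markers all had counts, among them Gata3, Klrg1 and Thy1. Their sums, in CPM (counts per 1e6 counts, here of library totals), ran from 1033 (library 4) to 3716 when fed and stood at 5282, 5807, 1567 and 1389 in fasted libraries 1, 3, 4 and 5. Rora, an ILC2 transcription factor, had 6 counts in the 8 libraries. Transcripts of acinar cells, the digestive enzyme cells around the islets, were abundant. The 16 of 17 acinar markers present in the table, led by Cpa1 and Ctrb1, took 26.3% to 46.2% of counts in fed libraries. They took 43.9% and 46.3% in fasted libraries 4 and 5 but 2.05% and 2.29% in fasted libraries 1 and 3, which stand apart. Adipocytes express the fatty acid genes strongly. Their 12 markers, led by Lipe and Fabp4, summed to 18.4 to 29.5 CPM in fed libraries. In fasted libraries these sums were 107, 73.4, 28.4 and 19.9 CPM for numbers 1, 3, 4 and 5. Among the other adipocyte markers, adiponectin (Adipoq) had 16 counts in fed and 42 in fasted libraries, with means of 0.417 and 3.60 CPM. The lipid droplet coat gene Plin1 had 0 in each. Fed and fasted counts were 66 and 72 for Cfd, 71 and 74 for Car3, 39 and 48 for Retn, and 25 and 9 for Cidec. Summed markers of other cells ran from 44.1 to 107 CPM in fed and 4.41 to 63.2 CPM in fasted libraries for islet endocrine cells (8 of 13 in the table). They ran from 118 to 241 and 21.6 to 190 CPM for ductal, stromal and endothelial cells (12 of 12), from 34.8 to 73.8 and 24.7 to 592 CPM for myeloid cells (7 of 10; fasted library 1 alone was above 57.7 CPM among fasted libraries), and from 21.0 to 44.6 and 37.8 to 113 CPM for T, B and NK cells (9 of 12). The part of these other cells in the levels below was not tested. In such bulk RNA, fewer cells of a type and less RNA per cell cannot be told apart.

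Of the 7 genes, Scd2 had the largest difference between fed and fasted libraries, and it was lower in fasted ones. None of the 7 passed the test. Acly, Fasn and Acaca had lower fasted means, Scd1 and Srebf1 slightly higher ones, and Elovl6 was near the limit of detection. Levels below are CPM over library sizes scaled by TMM factors, given as mean ± SD with n = 4. Log2 fold changes are fasted minus fed from edgeR's quasi-likelihood test, with their standard error (SE), and adjusted p-values are by Benjamini-Hochberg over the 7700 genes with enough counts to be tested. Elovl6 was not among these, so 6 of the 7 were tested. Over all genes, 0% of those tested had an adjusted p under 0.05, and 0 of the 6 did.

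**Figure D1:**
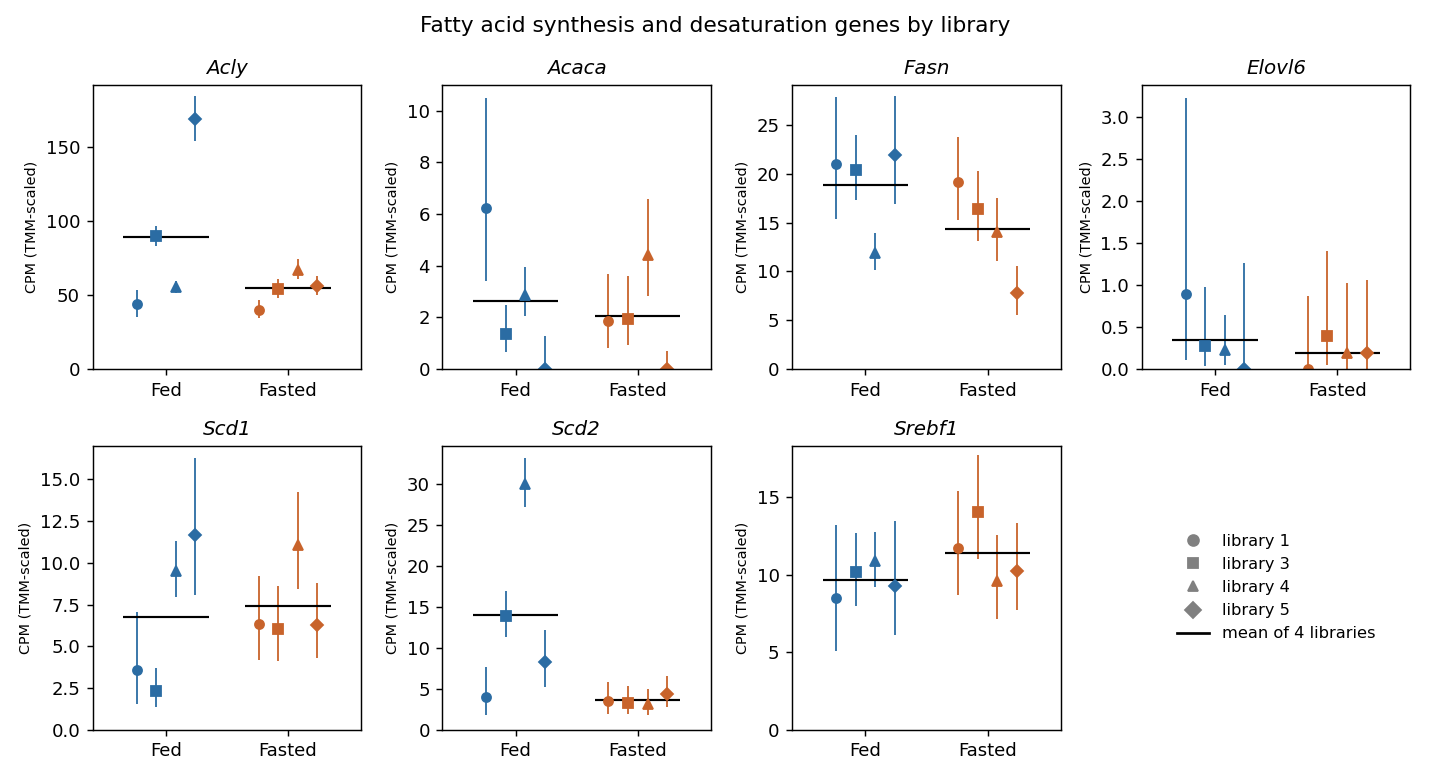
CPM over TMM-scaled library sizes of each gene (vertical axes, linear, from 0) in the 4 fed and 4 fasted libraries. Symbols mark the library number, bars the 95% Poisson interval of the count and black lines the group mean. Scd2 lies between 3.13 and 4.36 CPM in the fasted libraries and between 4.01 and 30.1 CPM in the fed ones.

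Acly, which supplies the acetyl-CoA, was the most abundant of the 7. Its mean over the 8 libraries, 72.0 CPM, was above that of 89.1% of tested genes. It lies on chromosome 11 at 100476353 to 100528000 on the minus strand (mm10; GENCODE vM21). Fed libraries 1, 3, 4 and 5 stood at 43.7, 89.8, 55.4 and 169 CPM, and the fasted ones at 40.0, 54.4, 67.3 and 56.3 CPM. The groups overlapped, and fed library 5 was far above the rest with 494 counts. Acly averaged 89.5 ± 56.6 CPM when fed and 54.5 ± 11.2 CPM when fasted, and the log2 fold change was -0.71 ± 0.39 (SE; edgeR, Benjamini-Hochberg adjusted p = 1.00; 95% interval -1.57 to 0.14). Without fed library 5 the log2 fold change was -0.21. Acly was lower in fasted than in fed libraries in 3 of 4 pairs of the same number.

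Acaca, the rate-limiting step of the pathway, was hardly detected. It lies on chromosome 11 at 84129672 to 84401651 on the plus strand. It had 105 counts in all, and its mean of 2.34 CPM was above that of only 3.31% of tested genes. Fed libraries 1, 3 and 4 held 14, 10 and 39 counts (6.25, 1.35 and 2.88 CPM) and fasted libraries 1, 3 and 4 held 8, 10 and 24 (1.87, 1.95 and 4.42 CPM). Library 5 of each group held 0 counts, where 3 counts would be 1.03 CPM in fed and 0.569 CPM in fasted. The 95% Poisson intervals of these 0 counts reach 1.26 and 0.699 CPM. The groups thus covered nearly the same range. The log2 fold change was -0.29 ± 1.09 (SE; edgeR, Benjamini-Hochberg adjusted p = 1.00), and its 95% interval of -2.69 to 2.11 holds large changes either way. It turned to 0.43 without fed library 1 and to 0.12 without fasted library 5. Its 3′ ends also have a near copy: of the 36-base words in the last 500 bases of its coding transcripts, 22.6% occur in another gene, Gm5182, so its counts are uncertain.

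Fasn, which builds palmitate, was the next most abundant enzyme. It lies on chromosome 11 at 120805846 to 120824547 on the minus strand. Its levels were 21.0, 20.4, 11.9 and 21.9 CPM in fed libraries 1, 3, 4 and 5 and 19.2, 16.4, 14.0 and 7.77 CPM in fasted ones. Apart from fed library 4, the fed libraries were all above the fasted ones. Fasn averaged 18.8 ± 4.65 CPM when fed and 14.3 ± 4.86 CPM when fasted. The log2 fold change was -0.38 ± 0.35 (SE; edgeR, Benjamini-Hochberg adjusted p = 1.00; 95% interval -1.15 to 0.38). The 2 acinar-poor fasted libraries had the higher fasted values, with a mean of 17.8 CPM against 10.9 CPM in the acinar-rich pair. Without the acinar-poor pair the log2 fold change was -0.78, and with the acinar share as a covariate it was -0.74, neither called. Without fasted library 5 it was -0.18.

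The sequences before the start sites of Acly and Fasn are shown because these were the most abundant enzymes of the set and both had lower fasted means. RefSeq's table for GRCm38.p6 (the mm10 assembly) matched 5 of the 7 genes; each line gives 250 bases upstream of the start, 5′ to 3′ on the gene's strand. Capitals mark GC boxes (GGGCGG or its reverse CCGCCC), which bind Sp1 family factors, and CCAAT boxes (CCAAT or ATTGG), which bind NF-Y, a partner of SREBP at many lipid genes.
Acly, chr11:100528001-100528250, minus strand: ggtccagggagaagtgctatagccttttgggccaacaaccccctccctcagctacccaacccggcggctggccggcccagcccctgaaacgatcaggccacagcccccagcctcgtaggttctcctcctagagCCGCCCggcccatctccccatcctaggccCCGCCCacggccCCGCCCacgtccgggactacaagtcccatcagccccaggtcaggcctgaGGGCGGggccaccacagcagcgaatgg
Fasn, chr11:120824548-120824797, minus strand: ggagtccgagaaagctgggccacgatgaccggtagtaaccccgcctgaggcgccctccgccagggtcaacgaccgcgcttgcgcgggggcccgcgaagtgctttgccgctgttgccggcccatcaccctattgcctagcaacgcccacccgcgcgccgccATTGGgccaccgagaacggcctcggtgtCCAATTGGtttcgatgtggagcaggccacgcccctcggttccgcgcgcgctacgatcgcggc
The Acly stretch holds 4 GC boxes, and the Fasn stretch holds 3 CCAAT boxes, whose first bases are at -90, -62 and -59 from the start and of which the last pair overlaps. Among the 32851 upstream stretches of this length in the table, 32.7% hold a GC box and 33.8% a CCAAT box on either strand. The classical sterol regulatory element TCACNCCAC, found in 1.05% of the stretches, and the E box CACGTG, found in 6.02%, had no match in the stretches of Acly, Acaca, Fasn, Elovl6 or Srebf1, which says only that these letters are not in these windows. The Acaca stretch, chr11:84195188-84195437, lies inside the span of the gene given above. For Srebf1, the bases after the start of each stretch occurred in 0 of its coding transcripts. For these genes the windows may not be the promoters in use.

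Elovl6, the palmitate elongase, had 11 counts in the 8 libraries. It lies on chromosome 3 at 129532355 to 129638495 on the plus strand. Fed libraries 1, 3, 4 and 5 held 2, 2, 3 and 0 counts and the fasted ones 0, 2, 1 and 1. Every library was at or under 3 counts, so no fold is given. Some of these counts may not be its own, since 12.4% of its 36-base end words occur in another gene, Gm11295. A difference between groups was not detectable at this depth.

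The desaturases lie 87.6 kb apart on chromosome 19, on opposite strands. Scd2 is at 44293674 to 44306864 on the plus strand and Scd1 at 44394455 to 44407879 on the minus strand. The last 500 bases of their transcripts, where CEL-seq2 tags lie, share no 36-base word with each other or with any other gene, so reads of that length or longer from these ends can be told apart. Scd1 is the main desaturase of liver, fat and skin, and Scd2 is widely expressed, with high levels in brain.

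Scd1 did not show a direction. It stood at 3.57, 2.30, 9.53 and 11.6 CPM in fed libraries 1, 3, 4 and 5, and the fasted ones at 6.32, 6.05, 11.1 and 6.26 CPM. The fasted libraries lay within the fed range. Scd1 averaged 6.76 ± 4.53 CPM when fed and 7.42 ± 2.43 CPM when fasted. The log2 fold change was 0.13 ± 0.54 (SE; edgeR, Benjamini-Hochberg adjusted p = 1.00; 95% interval -1.05 to 1.32). It turned negative when fed library 1 or 3 or fasted library 4 was left out, at -0.06, -0.17 and -0.14.

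On the TMM scale Scd2 lay in a narrow range in the fasted libraries and reached higher levels in fed libraries 3, 4 and 5. Fed libraries 1, 3, 4 and 5 held 9, 103, 407 and 24 counts, or 4.01, 13.9, 30.1 and 8.22 CPM. Fasted libraries 1, 3, 4 and 5 held 15, 17, 17 and 23 counts, or 3.51, 3.32, 3.13 and 4.36 CPM. Only fed library 1 came down to the fasted range, where its 9 counts give a 95% Poisson interval of 1.84 to 7.62 CPM. The intervals of fed libraries 3 (11.4 to 16.9 CPM) and 4 (27.2 to 33.1 CPM) lay above those of all 4 fasted libraries, the highest of which reached 6.54 CPM. Such intervals cover counting error only, and they take each count as a separate molecule. The sources used here do not say whether reads or molecules were counted, and with reads the intervals would be too narrow.

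Scd2 averaged 14.1 ± 11.4 CPM when fed and 3.58 ± 0.54 CPM when fasted. The narrow fasted range depended on the TMM factors, which ran from 0.538 to 2.11. As CPM of library totals, Scd2 stood at 5.01, 17.6, 16.1 and 5.73 in fed libraries 1, 3, 4 and 5 and at 7.35, 6.67, 2.17 and 2.46 in the fasted ones. On that scale fasted libraries 1 and 3 lay above fed libraries 1 and 5. The log2 fold change there was -1.31 ± 0.82 (SE, edgeR, unadjusted p = 0.11). With TMM scaling the log2 fold change was -2.00 ± 0.56 (SE; edgeR, Benjamini-Hochberg adjusted p = 0.72; 95% interval -3.23 to -0.77). Its p was the 46th smallest of the 7700 and did not pass. It was the only one of the 6 tested genes with an unadjusted p under 0.05 and a lower fasted level, where 1.62% of all tested genes had this. Fed library 4, the deepest, gave 407 of the 543 fed counts. That library also had the highest sum of ductal, stromal and endothelial markers, 241 CPM of totals, and the lowest sum of ILC2 markers, 1033 CPM of totals; their part in its Scd2 level was not tested. Without fed library 4 the fed mean was 8.72 ± 4.98 CPM (n = 3) and the log2 fold change -1.31 ± 0.52 (SE; edgeR, Benjamini-Hochberg adjusted p = 1.00). The acinar-poor and acinar-rich fasted pairs averaged 3.41 and 3.75 CPM on the TMM scale, but on library totals the acinar-poor pair was the higher one. Without the acinar-poor pair the log2 fold change was -1.92. Scd2 was lower in fasted than fed libraries in 4 of 4 same-number pairs on the TMM scale, while on library totals pair 1 was the reverse. With 0.5 CPM added to each level, the log2 ratios were -0.17, -1.92, -3.07 and -0.84 in pairs 1, 3, 4 and 5, so the size of the difference varied widely.

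**Figure D2:**
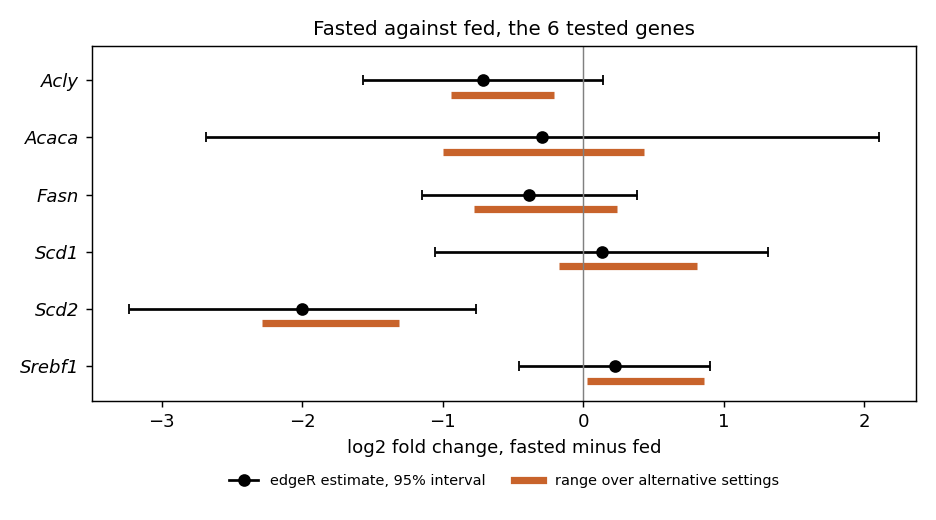
Log2 fold change of fasted minus fed (horizontal axis) for the 6 tested genes. Black points and bars are the edgeR estimate with its 95% interval, and orange bars span the values under the 17 or 18 alternative settings that tested the gene. Scd2 is at -2.00 with a span of -2.29 to -1.31, and the other 5 intervals cross 0.

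The share of Scd2 in the counts of both desaturases does not depend on how libraries are scaled. This share was 52.9%, 85.8%, 75.9% and 41.4% in fed libraries numbered 1, 3, 4 and 5, and 35.7%, 35.4%, 22.1% and 41.1% in the fasted ones. Scd2 was the larger part in fed libraries 3 and 4 (95% Clopper-Pearson intervals 78.3% to 91.5% and 72.1% to 79.5%) and the smaller part in fasted library 4 (13.4% to 33.0%). In the other 5 libraries the interval included equal parts, and fed library 1 rests on 9 and 8 counts. These intervals also take each count as a separate molecule, which is not known here. The share averaged 64.0% ± 20.4 when fed and 33.6% ± 8.09 when fasted (SD, n = 4), a difference of -30.5 percentage points. With a library left out the difference ran from -38.0 points (without fed library 5) to -23.2 points (without fed library 3). The groups did not overlap, but fed library 5 and fasted library 5 differed only by 41.4% against 41.1%, with 95% Clopper-Pearson intervals of 28.6% to 55.1% and 28.1% to 55.0%. Both genes were chosen with earlier results known, so no test is given.

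**Figure D3:**
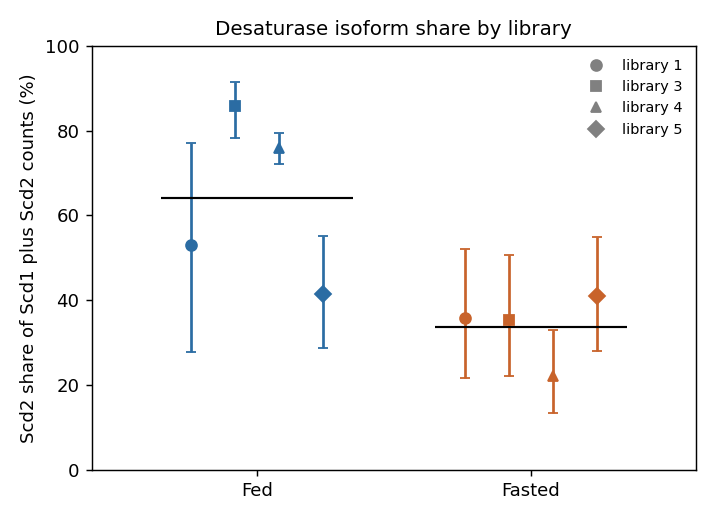
Share of Scd2 in Scd1 plus Scd2 counts (vertical axis, percent) in each library, with its 95% Clopper-Pearson interval and the group mean as a black line. Fed libraries 3 and 4, at 85.8% and 75.9%, stand above all others, and fed library 5 is level with fasted library 5.

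Srebf1, the regulator, differed little between libraries on the TMM scale. It lies on chromosome 11 at 60199089 to 60222581 on the minus strand and overlaps Rai1 on the other strand, which had 86 counts against 496 for Srebf1. Fed libraries 1, 3, 4 and 5 stood at 8.48, 10.1, 10.9 and 9.25 CPM and fasted ones at 11.7, 14.1, 9.59 and 10.2 CPM. Fasted libraries 1 and 3, the acinar-poor ones, were above every fed library, and fasted libraries 4 and 5 were within the fed range. Srebf1 averaged 9.68 ± 1.04 CPM when fed and 11.4 ± 1.98 CPM when fasted. The log2 fold change was 0.23 ± 0.31 (SE; edgeR, Benjamini-Hochberg adjusted p = 1.00; 95% interval -0.45 to 0.91). Without the acinar-poor pair it was 0.03, and with the acinar share as a covariate 0.07. Counts at the 3′ end do not separate the SREBP-1a and SREBP-1c transcripts, which differ at the 5′ end, or show the cleavage that activates the protein.

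Because the method counts 3′ ends, levels were compared between genes in CPM without division by length. In fasted libraries the order of mean CPM was Acly, Fasn, Srebf1, Scd1, Scd2, Acaca and Elovl6. Acly, at 40.0 CPM or more, lay above every other gene in each fasted library, and Scd1 lay above Scd2 in each. The neighbours Fasn and Srebf1, Srebf1 and Scd1, Scd2 and Acaca, and Acaca and Elovl6 overlapped. In fed libraries Scd2, at 14.1 CPM, came after Acly and Fasn and before Srebf1 and Scd1, with ranges that overlapped those of Fasn, Srebf1 and Scd1. The 7 genes did not follow one pattern. Fed library 5 was highest for Acly, Fasn and Scd1, fed library 4 for Scd2 and Srebf1, and fed library 1 for Acaca and Elovl6. Groups overlapped for all 7 genes, where 1.31% of tested genes had every fasted library below every fed one and 2.21% the reverse.

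Other genes of the pathway were taken from lists by role, of which 72 of 77 genes outside sterol synthesis were in the table and 51 were tested. Of these 23 had higher and 28 lower fasted levels, with a median log2 fold change of -0.19 against -0.00 for all tested genes. Over all tested genes 50.2% were lower, which is the share to set beside the counts of each list below. None was called by edgeR; with DESeq2, and with edgeR on unfiltered genes, 1 was. At an unadjusted p under 0.05, 5 were lower and 1 was higher, where 1.62% of all tested genes were lower and 2.77% higher. Groups did not overlap for 3 lower and 2 higher ones, where 1.31% of all tested genes were lower in this way and 2.21% higher.

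Genes that supply substrate had a median of -0.19 over 6 tested, with 4 lower. The mitochondrial citrate carrier Slc25a1, the step before Acly, stood at 79.9, 62.2, 56.8 and 83.2 CPM in fed libraries 1, 3, 4 and 5 and at 51.2, 48.8, 55.3 and 45.7 CPM in fasted ones. Every fasted library was below every fed one, by little for fed library 4. Its log2 fold change was -0.49 ± 0.22 (SE; edgeR, Benjamini-Hochberg adjusted p = 1.00). Acss2, which makes acetyl-CoA from acetate, was at -0.19 ± 0.37.

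Among the controls of the carboxylase, which include the AMP-activated kinase that inhibits it, 4 of 6 tested were higher, with a median of 0.32. The kinase subunit Prkab1 averaged 5.79 ± 1.33 CPM when fed and 8.56 ± 1.12 CPM when fasted, without overlap (0.58 ± 0.37), and the catalytic subunit Prkaa1 was at -1.23 ± 0.83, and at -0.58 without fed library 3. Elongation genes were balanced, with 4 of 8 higher and a median of -0.11. Elovl7, an elongase of saturated chains, averaged 1.33 ± 1.91 CPM when fed and 5.90 ± 1.72 CPM when fasted (1.95 ± 0.89). Fed libraries 1 and 5 held 0 counts, and fed library 3, at 4.06 CPM, lay within the fasted range of 3.87 to 7.61 CPM. The log2 fold change of Elovl7 was 3.23 without fed library 3 and 1.58 with the acinar share as a covariate. The dehydratase Hacd2, listed as Ptplb, was at -1.02 ± 0.64, and at -0.62 without fed library 3.

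Of the other desaturation genes 3 of 4 tested were lower, with a median of -0.37. Among these 4 only Fads1 encodes a desaturase, and the others encode a cytochrome b5 or its reductase. Cyb5b, a cytochrome b5 of the outer mitochondrial membrane, averaged 41.4 ± 15.7 CPM when fed and 22.2 ± 8.51 CPM when fasted (-0.91 ± 0.37), and at -0.58 without the acinar-poor pair. Fads1, the delta-5 desaturase of polyunsaturated chains, was at -0.54 ± 0.43, and at -0.06 without the acinar-poor pair and -0.19 without fed library 4. Genes that activate fatty acids and build glycerolipids were balanced, with 5 of 9 higher and a median of 0.14. Agpat2, an acyltransferase of phosphatidic acid synthesis, was at -0.46 ± 0.32, and at -0.14 without fed library 5. Dgat1, which makes triglyceride, was at 0.54 ± 0.45, but at -0.19 without fasted library 1.

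Mitochondrial fatty acid synthesis, a separate route that supplies lipoic acid, had 4 tested genes, 3 of them lower, with a median of -0.32. Its reductase Mecr stood at 13.4, 14.7, 19.1 and 16.1 CPM in fed libraries 1, 3, 4 and 5 and at 5.38, 5.07, 9.03 and 9.10 CPM in fasted ones. The groups did not overlap, and the acinar-poor fasted pair was lowest. Its log2 fold change was -1.15 ± 0.34 (SE; edgeR, Benjamini-Hochberg adjusted p = 0.79). The acyl carrier protein gene Ndufab1 was at -0.37 ± 0.32, and at -0.18 without the acinar-poor pair.

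The genes that control SREBP processing went in different directions. Insig1, which holds SREBP in the endoplasmic reticulum and is itself an SREBP target, stood at 6.25, 20.03, 26.8 and 11.99 CPM in fed libraries 1, 3, 4 and 5 and at 0.468, 4.10, 8.30 and 7.39 CPM in fasted ones. Only fed library 1 was within the fasted range, and fasted library 1 was lowest with 2 counts. Its log2 fold change was -1.69 ± 0.68 (SE; edgeR, Benjamini-Hochberg adjusted p = 1.00), and without the acinar-poor pair -1.07. Scap, which escorts SREBP to the Golgi for cleavage, averaged 5.30 ± 1.71 CPM when fed and 10.2 ± 1.87 CPM when fasted, without overlap (0.95 ± 0.39; edgeR, Benjamini-Hochberg adjusted p = 1.00). Of 8 tested genes of this list 3 were higher and 5 lower, with a median of -0.21. Fatty acid uptake and binding genes had a median of -0.04 over 6 tested, 3 higher and 3 lower, and the binding protein Fabp5 was at -0.68 ± 0.52, and at -0.42 without fed library 4 and -0.45 without fasted library 3.

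Sterol synthesis, which SREBP-2 drives, was set beside these. Of 15 tested genes 13 were lower, with a median log2 fold change of -0.69, where 50.2% of all tested genes were lower. At an unadjusted p under 0.05 (edgeR) 6 of them were lower, where 1.62% of all tested genes were, and none was called. Fdps, the farnesyl diphosphate synthase, averaged 8.02 ± 1.83 CPM when fed and 2.75 ± 0.66 CPM when fasted, without overlap (-1.55 ± 0.43). Of the 6 tested fatty acid genes only Scd2 had a log2 fold change of this size. Whether the sterol and fatty acid genes differ was not tested.

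**Figure D4:**
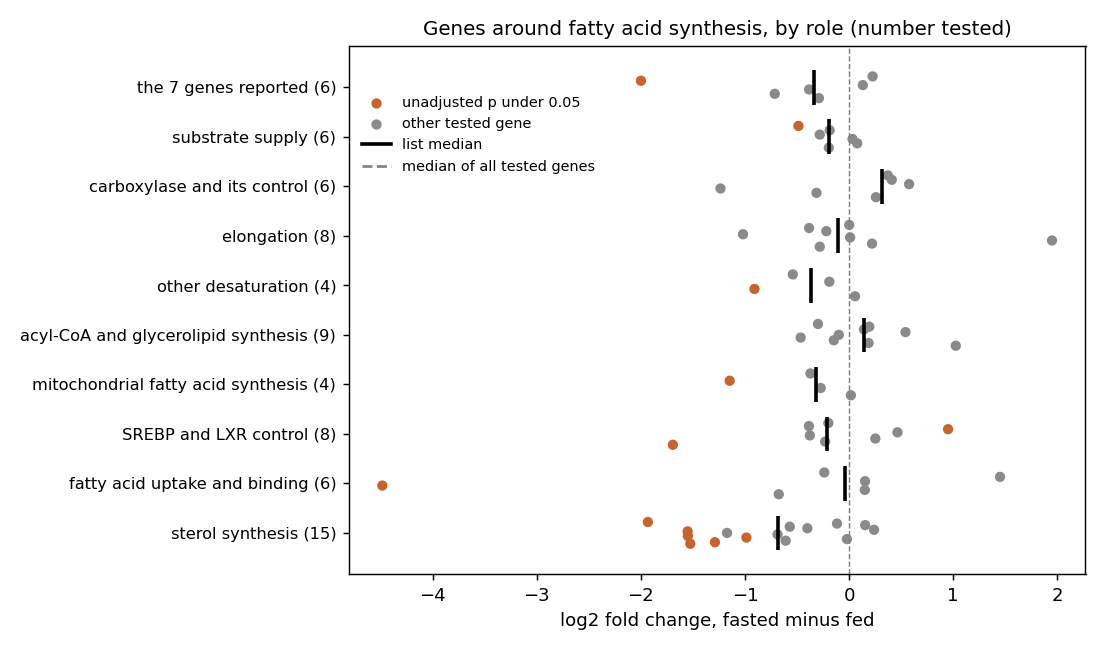
Log2 fold change of fasted minus fed (horizontal axis) of each tested gene, in rows by role, with the number tested. Orange points have an unadjusted p under 0.05, black bars are list medians and the dashed line is the median of all tested genes. The sterol synthesis median, -0.69, lies farthest below the dashed line, and the 6 tested fatty acid genes have a median of -0.34.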

How the data were processed

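RNA of ILC2 was measured in 4 fed and 4 fasted libraries from 4 multiplexed sequencing files. The authors deposited whole-number counts per gene, not normalised; per the submitters' processing notes STAR, edgeR and mm10 were used, and versions are not given in the sources used here, nor whether reads or molecular identifiers were counted. The table's 2 further library columns and 11 ERCC spike-in rows were not used. The members and lists were chosen with earlier results of these data known.

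Genes were filtered with filterByExpr, scaled by TMM and tested with edgeR 4.0.16 (R 4.3.3; robust quasi-likelihood, two-sided, threshold 0.05) without covariates. Alternatives were other scalings and filters, DESeq2 1.42.0, limma-voom (limma 3.58.1), a replicate block, an acinar covariate and each library left out; leaving out both acinar-poor fasted libraries was added after seeing the data. The tests were also run on simulated counts, drawn from a common mean profile without the acinar difference between libraries. That run does not show how the tests perform on these libraries. Numbers were taken as pairs from column names alone. Deviations of same-number libraries had correlations of 0.23, 0.14, 0.50 and 0.13 over tested genes. Fasted 5 correlated better with fed 4 (0.22) than with fed 5, and fasted 3 better with fed 1 (0.20) than with fed 3. The correlations thus do not settle the pairing. Named genes are the 7 members, the 2 with the smallest p of each role list, and the 3 with the most similar profile to each member; 2 genes the rule takes are not reported here. For 6 list genes the table's older symbol was matched by synonym and chromosome. Gene coordinates are from GENCODE vM21, end words from its transcripts.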

Additional observations from a re-analysis of the deposited data

Results flagged for a closer look

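In 2 of the 14 sets of 4 libraries, a set being 1 gene in 1 group, one library lay apart from the other 3 by more than Dixon's 95% critical value. Chance gives this in about 1 in 20 sets. Fasn was at 11.9 CPM in fed library 4, against 20.4 to 21.9 CPM in the other fed libraries. Scd1 was at 11.1 CPM in fasted library 4, against 6.05 to 6.32 CPM in the other fasted libraries.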

How the results depend on the processing

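Under the 18 alternatives, none of the 7 genes was called. Acly and Scd2 stayed negative and Srebf1 positive in each that tested them, at -0.94 to -0.21, -2.29 to -1.31 and 0.03 to 0.86; the stricter filter left out Acaca, Scd1 and Scd2. The lowest adjusted p of Scd2 was 0.14, with DESeq2. With the replicate block Scd2 was at -1.67 (edgeR, adjusted p = 0.71) and no call changed. Over all genes 0 were called, with 338 at an unadjusted p under 0.05 (edgeR), against 1 called with library totals alone, 1 with no filter and 17 with DESeq2; limma-voom called 0. Library totals alone moved the median of all genes to 0.51, and relative to it Scd2 was at -1.82, Acly at -0.72, Fasn at -0.26 and Acaca at -0.46. Without that correction Acaca was at 0.051, Fasn at 0.24, Slc25a1 at 0.017, Acss2 at 0.18, Agpat2 at 0.018 and the pathway median at 0.33, all turned in sign. With a library left out, Acaca ran from -0.997 to 0.43, Scd1 from -0.17 to 0.50, Acss2 from -0.38 to 0.064 and Dgat1 from -0.19 to 0.78. Dgat1 was also negative at -0.20 given the acinar share as covariate and at -0.29 with fasted libraries 1 and 3 left out. The cause was not tested. The 11 counts of Elovl6 were too few to pass the filter, and it was tested only with no filter.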

Other observations

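Several relatives of the 7 genes were too scarce to be tested. The desaturases Scd3 and Scd4, further copies of the Scd family, had 7 and 4 counts in the 8 libraries, and the delta-6 desaturase Fads2 had 5. Acacb, the mitochondrial carboxylase that makes malonyl-CoA to restrain fatty acid oxidation, had 73 counts, at 0, 1.89, 2.81 and 1.03 CPM in fed libraries 1, 3, 4 and 5 and 0, 0, 1.84 and 1.52 CPM in fasted ones. It was thus at 0 in both acinar-poor fasted libraries and in fed library 1. The fatty acid transporter Cd36 had 54 counts, at 1.34, 0.271, 0.369 and 0.685 CPM in fed libraries 1, 3, 4 and 5 and 1.64, 0.195, 4.79 and 1.52 CPM in fasted ones, with 26 of the counts in fasted library 4.

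Likeness between genes was measured as the root mean square difference of mean-centred log2 CPM (prior count 2) over the 8 libraries. The profiles most like each gene were Lmnb2, Cnot11 and Sac3d1 for Acly (0.23 to 0.33), Nagpa, Rara and Mfsd5 for Fasn (0.12 to 0.18), and Isoc2b, Zfp1 and Enpp5 for Scd1 (0.25 to 0.29). They were Atp6v1d, Cnbp and Arpp19 for Srebf1 (0.11 to 0.12) and Zranb2, Lactb and Tle1 for Acaca (0.44 to 0.50). Scd2 had the least close neighbours, Ifitm3, Ift20 and Cebpd, at 0.54 to 0.57, where its median difference from all tested genes was 1.22. No other gene of the set was among these neighbours, and the closest 2 within the set were Fasn and Srebf1, at 0.54. Median differences from all tested genes were 0.73 for Fasn and 0.59 for Srebf1, so this is little closer than the Srebf1 median.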
